A study of Mus musculus with 15 samples.

Results

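The genes described here are 10 costimulatory ligands and receptors of the tumour necrosis factor (TNF) superfamily, chosen by symbol among 53762 genes of the deposited count table: the ligands Cd40lg, Tnfsf8, Tnfsf11 and Tnfsf14 and the receptors Tnfrsf4, Tnfrsf18, Tnfrsf9, Tnfrsf25, Cd27 and Tnfrsf1b. They were read in 15 RNA sequencing libraries of mature mouse thymocytes on the C57BL/6 strain, 3 in each of 5 groups. Wild-type and mutant bone marrow had been mixed and given to irradiated mice, and donor cells that were CD44lo, TCRbhi, CD24lo and CD69lo were sorted from the thymus. The title asks what Thpok-RKF does to gene expression in mature thymocytes restricted by MHC class II. Mutant marrow was CD45.2+ and of the genotype Thpokfl/fl Runx3fl/dYFP Cd4-Cre+, in which Cre driven by Cd4 sequence deletes floxed alleles in developing T cells. It carried Thpok-RKF in the Thpok-RKF+ CD4+CD8+ group, and did not in the Thpok-RKF- CD4+CD8+ and Thpok-RKF- CD8 SP (CD4-CD8+) groups. The labels do not say what Thpok-RKF is, and an age is not given in the sources used here. Wild-type (WT) competitors were CD45.1+CD45.2+ and gave a WT CD4 SP (CD4+CD8-) and a WT CD8 SP group. The hosts were B2m-/-, lacking a chain of MHC class I, for every group except WT CD8 SP, whose hosts were I-Ab-/- and lacked a chain of MHC class II. In WT cells, host and lineage therefore cannot be told apart, and host and genotype cannot be told apart between Thpok-RKF- CD8 SP and WT CD8 SP cells.

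TNF superfamily ligands are trimers on the cell surface that cluster their receptors, and the receptors of T cells recruit TRAF adaptors that switch on NF-kB and survival genes. Helper T cells are known for CD40 ligand, through which they license B cells and dendritic cells, and OX40 and GITR are abundant on regulatory T cells. In the thymus, developing CD4 T cells deliver RANK ligand and CD40 ligand to medullary epithelium, and several of the receptors are induced by signals through the T cell receptor (TCR).

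Zbtb7b, the gene for the helper-lineage factor Thpok, was read first as a targeted gene. It stood at 768 to 823 CPM (counts scaled to library size, with TMM factors) in Thpok-RKF+ CD4+CD8+ libraries, 1.67 to 2.95 in Thpok-RKF- CD4+CD8+, 1.92 to 2.51 in Thpok-RKF- CD8 SP, 27.4 to 79.1 in WT CD4 SP libraries and 0.0932 to 0.376 in WT CD8 SP libraries. Counts cover the whole gene and so do not check the deletion itself, and the labels leave unsaid whether Thpok-RKF transcripts are counted under this symbol. Gene totals were 37311823 to 48607260 per library. The libraries numbered 1 stood apart: their share of reads outside annotated features was the highest of their group in 5 of 5 groups, and Cd40lg was lowest in them in 5 of 5 groups. Lyz2, a myeloid gene, was 24.5 CPM in Thpok-RKF+ CD4+CD8+ replicate 1 and 28.3 CPM in WT CD4 SP replicate 1, and at most 4.43 CPM elsewhere. Other myeloid markers were mixed. In that Thpok-RKF+ library Csf1r and Adgre1 were highest of their group (5.24 and 4.44 CPM). Cd74, Cst3 and H2-Aa were lowest there (30.6, 68.8 and 0.613 CPM). In that WT CD4 SP library H2-Aa and Itgax were highest of their group (4.25 and 0.982 CPM), Csf1r was 0 and Adgre1 0.137 CPM. Calls that differ without the 5 libraries numbered 1 are given both ways. Cd4 stood at 1036 to 1146 CPM in Thpok-RKF+ CD4+CD8+, 214 to 397 in Thpok-RKF- CD4+CD8+, 17.4 to 41.5 in Thpok-RKF- CD8 SP, 822 to 969 in WT CD4 SP libraries and 0.803 to 3.85 in WT CD8 SP libraries, and Cd8a was 747 CPM or more in every library except those of WT CD4 SP, 2.13 to 7.67. All 6 T cell markers were detected in every group. Of these, Cd247 was 2374 to 2772 CPM in Thpok-RKF+ CD4+CD8+ libraries and 400.4 to 559 CPM in the libraries of the other groups. Against Thpok-RKF- CD4+CD8+ cells its log2 fold change was 2.58 ± 0.10 (edgeR adjusted p = 1.80e-09). Among B cell markers Ms4a1 was at 0 throughout and Pax5 at most 0.0864 CPM, while Cd79a was 1.07 to 5.83 CPM and Ighm 347 to 1092 CPM over all libraries. Cd79b, another B cell marker, was 5.47 to 6.82 CPM in Thpok-RKF- CD8 SP and 0.434 to 1.68 CPM in WT CD4 SP libraries, against 39.1 to 42.8 CPM in WT CD8 SP libraries (edgeR adjusted p = 0.000282 and 4.47e-06), and the part of these genes in the results was not tested. Nothing in the labels says that replicates are separate animals, so p-values measure a spread among libraries that may be technical.

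All 10 genes passed the filter on low counts. Per kilobase of exon, a scale on which genes can be compared, Cd27 had the highest level of the 10 in each group, 245 CPM per kb in Thpok-RKF+ CD4+CD8+, 213 in Thpok-RKF- CD4+CD8+, 269 in Thpok-RKF- CD8 SP, 233 in WT CD4 SP cells and 195 in WT CD8 SP cells, and Tnfsf14 had the lowest, at most 0.679. The genes differed in how far they moved across groups. The widest span between group means on the log2 scale of CPM plus 1 was 5.96 for Tnfrsf4, followed by 4.78 for Cd40lg, 3.31 for Tnfrsf25 and 2.21 for Tnfrsf9, and the narrowest was 0.46 for Cd27. With the 5 group means of each gene ranked, 10 of 40 pairs of neighbours in rank were called different. The share of such pairs over all genes was not computed, so that count describes these genes only.

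**Figure D1:**
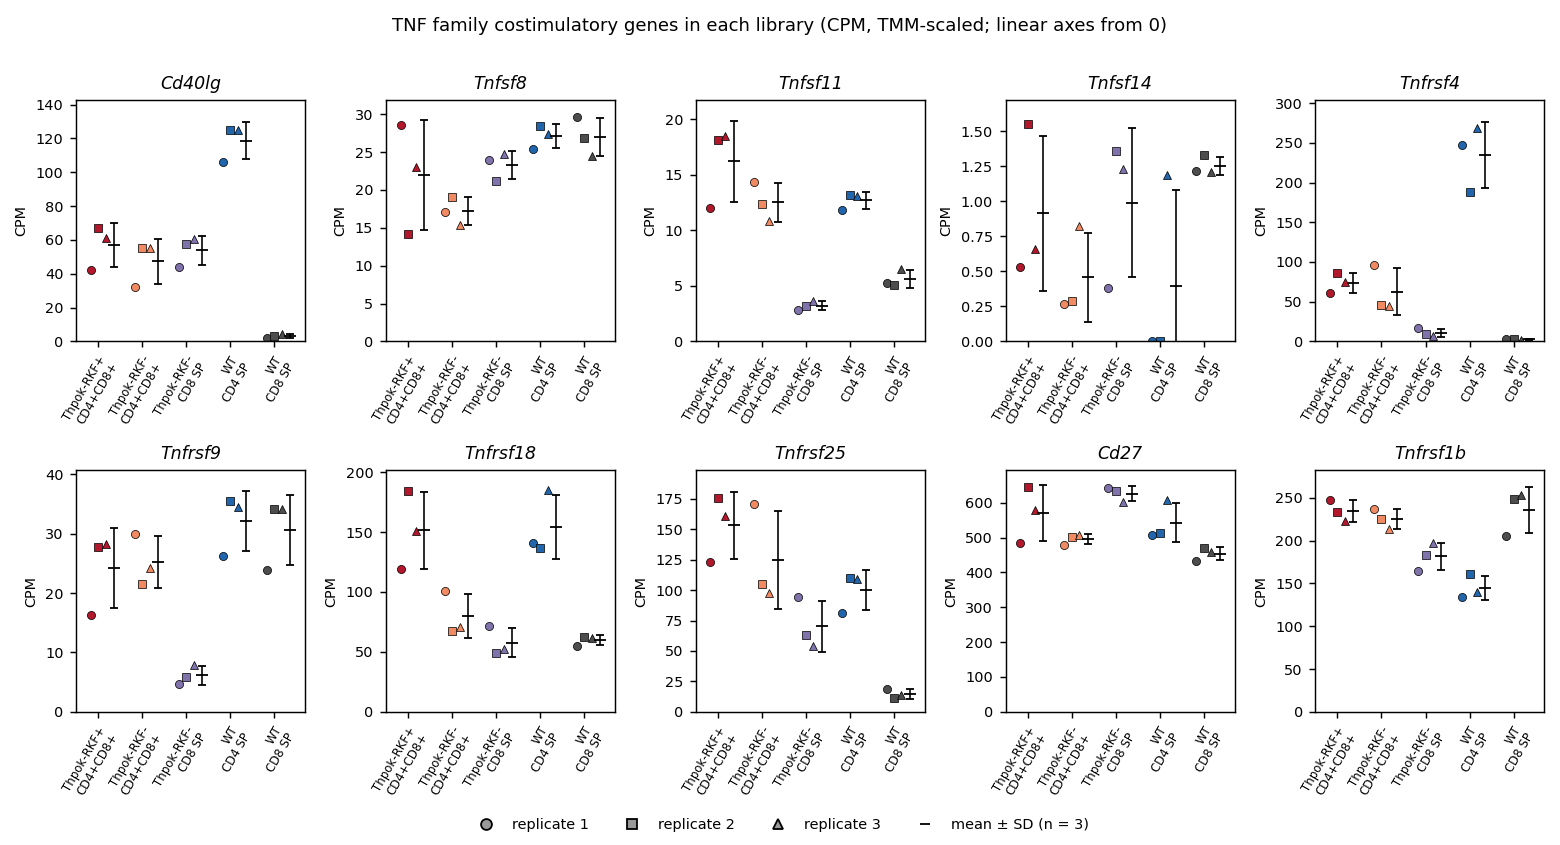
Level of each gene in each library, in CPM with TMM-scaled library sizes on linear axes that start at 0; point shapes are replicates, and bars are mean ± SD (n = 3 libraries). Cd40lg was near 0 in WT CD8 SP libraries alone (2.1 to 4.69 CPM), Tnfrsf4 was highest in WT CD4 SP libraries (188 to 268 CPM), and Tnfrsf9 was lowest in Thpok-RKF- CD8 SP libraries (4.74 to 7.93 CPM).

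Among the ligands, Cd40lg, whose product CD40 ligand is the helper signal to CD40 on B cells, was present in every mutant group at an intermediate level. Its level was 42.4, 67.2 and 61 CPM in Thpok-RKF+ CD4+CD8+ libraries, 32.2, 55.1 and 55.3 CPM in Thpok-RKF- CD4+CD8+ libraries and 43.9, 57.4 and 60.3 CPM in Thpok-RKF- CD8 SP libraries. WT CD4 SP libraries had 106, 125 and 125 CPM, and WT CD8 SP libraries 2.1, 3.24 and 4.69 CPM. Every mutant library lay above every WT CD8 SP library and below every WT CD4 SP library, and the mutant groups overlapped each other. Among cells sorted as CD4-CD8+, Cd40lg was 16-fold higher in Thpok-RKF- CD8 SP than in WT CD8 SP cells, or 4.0 ± 0.30 log2 units (SE, n = 3 each; quasi-likelihood test of edgeR, Benjamini-Hochberg adjusted p over all genes = 5.56e-07). It was lower than in WT CD4 SP cells in Thpok-RKF- CD8 SP cells (log2 fold change -1.14 ± 0.26, edgeR adjusted p = 0.00836), in Thpok-RKF- CD4+CD8+ cells (-1.32 ± 0.26, adjusted p = 0.00445) and in Thpok-RKF+ CD4+CD8+ cells (-1.06 ± 0.26, adjusted p = 0.0225). The last call was lost without WT CD4 SP replicate 2 or 3 (edgeR adjusted p = 0.0603 and 0.0667) or Thpok-RKF+ CD4+CD8+ replicate 1 or 3 (adjusted p = 0.0877 and 0.0616). Between mutant groups the difference was -0.18 ± 0.26 for Thpok-RKF- CD4+CD8+ minus Thpok-RKF- CD8 SP cells and 0.26 ± 0.26 for Thpok-RKF+ minus Thpok-RKF- CD4+CD8+ cells, neither called (edgeR adjusted p = 0.923 and 0.7). WT CD4 SP cells exceeded WT CD8 SP cells 35.3-fold (log2 5.14 ± 0.31, edgeR adjusted p = 6.66e-08). In these bulk samples, as for each gene that follows, fewer cells with the transcript and less transcript per cell cannot be told apart.

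Tnfsf11 encodes RANK ligand, the signal that developing T cells give to medullary epithelium. Its level was 12, 18.1 and 18.5 CPM in Thpok-RKF+ CD4+CD8+, 14.3, 12.4 and 10.8 CPM in Thpok-RKF- CD4+CD8+ and 2.83, 3.18 and 3.66 CPM in Thpok-RKF- CD8 SP libraries. WT CD4 SP libraries had 11.8, 13.2 and 13.1 CPM and WT CD8 SP libraries 5.24, 5.12 and 6.55 CPM. The 3 groups sorted as CD4+ overlapped one another and lay above both CD8 SP groups. In mutant cells without Thpok-RKF, Tnfsf11 was 3.88-fold higher in CD4+CD8+ than in CD8 SP cells (log2 1.96 ± 0.21, edgeR adjusted p = 0.000107). In WT cells it was 2.25-fold higher in CD4 SP than in CD8 SP cells (1.17 ± 0.21, edgeR adjusted p = 0.00124). Thpok-RKF- CD8 SP cells lay below WT CD4 SP cells (log2 -1.98 ± 0.21, edgeR adjusted p = 2.05e-05) and below WT CD8 SP cells (-0.81 ± 0.21, adjusted p = 0.0138). The call against WT CD8 SP was lost without WT CD8 SP replicate 3 (edgeR adjusted p = 0.0843), without Thpok-RKF- CD8 SP replicate 1 or 2 (0.068 and 0.0523) and with no low-count filter (0.053).

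Tnfsf8, the ligand of CD30, varied little and Tnfsf14, whose product LIGHT binds HVEM and the lymphotoxin beta receptor, had at most 72 counts in a library. Tnfsf8 had 28.6, 14.2 and 23 CPM in Thpok-RKF+ CD4+CD8+, 17.1, 19.1 and 15.4 CPM in Thpok-RKF- CD4+CD8+ and 24, 21.2 and 24.7 CPM in Thpok-RKF- CD8 SP libraries, against 25.4, 28.5 and 27.4 CPM in WT CD4 SP libraries and 29.6, 26.9 and 24.5 CPM in WT CD8 SP libraries. Neighbouring groups in rank overlapped. The 1 call was a fall in Thpok-RKF- CD4+CD8+ against WT CD4 SP cells (log2 -0.66 ± 0.20, edgeR adjusted p = 0.0382), and it was lost without any 1 of the 6 libraries of these groups (adjusted p = 0.0556 to 0.119) and without the libraries numbered 1 (0.0655). Tnfsf14 had 25, 72 and 28 counts in Thpok-RKF+ CD4+CD8+, 13, 13 and 37 counts in Thpok-RKF- CD4+CD8+ and 17, 63 and 55 counts in Thpok-RKF- CD8 SP libraries, with 0, 0 and 52 counts in WT CD4 SP libraries and 46, 53 and 52 in WT CD8 SP libraries. With all libraries edgeR called it in no comparison (lowest adjusted p = 0.413), but WT CD4 SP replicate 3 decided that. Without it WT CD4 SP had no count, and against a floor of 3 counts over the other 2 WT CD4 SP libraries the mean level was at least 28.1-fold higher in Thpok-RKF+ CD4+CD8+, 14.1-fold in Thpok-RKF- CD4+CD8+, 30.4-fold in Thpok-RKF- CD8 SP and 38.5-fold in WT CD8 SP cells (edgeR adjusted p between 0.00096 and 0.00592). These bounds cover those 2 libraries only and do not hold for the group. Replicate 3 itself had 1.19 CPM, near the 1.21 to 1.33 CPM of WT CD8 SP libraries. With all libraries WT CD4 SP minus WT CD8 SP cells gave log2 -1.66 ± 1.25.

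Among the receptors, Tnfrsf4, which encodes OX40, had the widest span. Its level was 61.1, 85.9 and 74.9 CPM in Thpok-RKF+ CD4+CD8+, 96.4, 46.4 and 44.3 CPM in Thpok-RKF- CD4+CD8+ and 16.9, 9.03 and 7.27 CPM in Thpok-RKF- CD8 SP libraries. WT CD4 SP libraries had 247, 188 and 268 CPM and WT CD8 SP libraries 3.38, 2.71 and 2.24 CPM. Ranked by mean, WT CD4 SP came first, then the overlapping CD4+CD8+ groups, then Thpok-RKF- CD8 SP and last WT CD8 SP, with no overlap at any other step. Tnfrsf4 was 5.65-fold higher in Thpok-RKF- CD4+CD8+ than in Thpok-RKF- CD8 SP cells (log2 2.50 ± 0.34, edgeR adjusted p = 0.000654) and 3.99-fold higher in Thpok-RKF- CD8 SP than in WT CD8 SP cells (2.00 ± 0.35, adjusted p = 0.000991). It was lower than in WT CD4 SP cells in Thpok-RKF- CD8 SP cells (log2 -4.41 ± 0.37, edgeR adjusted p = 1.47e-06), in Thpok-RKF- CD4+CD8+ cells (-1.91 ± 0.33, adjusted p = 0.00166) and in Thpok-RKF+ CD4+CD8+ cells (-1.66 ± 0.32, adjusted p = 0.00493). WT CD4 SP cells exceeded WT CD8 SP cells 84.7-fold (log2 6.4 ± 0.41, edgeR adjusted p = 9.48e-08). Thpok-RKF+ minus Thpok-RKF- CD4+CD8+ cells gave 0.25 ± 0.32 (edgeR adjusted p = 0.775), but 0.82 without the libraries numbered 1 (adjusted p = 0.0226), of which the Thpok-RKF- CD4+CD8+ one was the highest of its group and the Thpok-RKF+ one the lowest. Over all genes, that comparison had 159 calls with these libraries and 1753 without them.

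Tnfrsf18 encodes GITR and lies next to Tnfrsf4 on chromosome 4, with 1 RefSeq gene, Gm25982, between them in GRCm38.p6. It had 119.5, 184 and 151 CPM in Thpok-RKF+ CD4+CD8+, 101, 67.4 and 70.8 CPM in Thpok-RKF- CD4+CD8+ and 71.4, 48.9 and 52.2 CPM in Thpok-RKF- CD8 SP libraries, against 141, 137 and 185 CPM in WT CD4 SP libraries and 54.9, 62.4 and 61.6 CPM in WT CD8 SP libraries. Thpok-RKF+ CD4+CD8+ libraries overlapped those of WT CD4 SP and lay above the other groups. Tnfrsf18 was the 1 gene of the 10 called between Thpok-RKF+ and Thpok-RKF- CD4+CD8+ cells, 1.89-fold higher with Thpok-RKF (log2 0.92 ± 0.20, edgeR adjusted p = 0.0448). That call was lost when Thpok-RKF- CD4+CD8+ replicate 2 or 3 (edgeR adjusted p = 0.175 and 0.172) or Thpok-RKF+ CD4+CD8+ replicate 2 or 3 (0.192 and 0.149) was left out, with these groups alone in the fit (0.157) and with the replicate number in the model (0.053). Tnfrsf18 was below WT CD4 SP cells in Thpok-RKF- CD4+CD8+ cells (log2 -0.95 ± 0.20, edgeR adjusted p = 0.0063) and Thpok-RKF- CD8 SP cells (-1.43 ± 0.20, adjusted p = 0.000241), and 2.59-fold higher in WT CD4 SP than in WT CD8 SP cells (1.37 ± 0.20, adjusted p = 0.000298). Unlike its neighbour, it was not called between Thpok-RKF- CD8 SP and WT CD8 SP cells (log2 -0.05 ± 0.20, edgeR adjusted p = 0.908).

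Tnfrsf9 encodes 4-1BB, a receptor induced after TCR stimulation. It had 16.4, 27.8 and 28.3 CPM in Thpok-RKF+ CD4+CD8+, 30.0, 21.5 and 24.2 CPM in Thpok-RKF- CD4+CD8+ and 4.74, 5.79 and 7.93 CPM in Thpok-RKF- CD8 SP libraries. WT CD4 SP libraries had 26.3, 35.5 and 34.5 CPM and WT CD8 SP libraries 23.9, 34.1 and 34.1 CPM. All groups overlapped in rank order except Thpok-RKF- CD8 SP, which lay below every library of every other group. Tnfrsf9 in Thpok-RKF- CD8 SP cells fell by 2.32 ± 0.26 on the log2 scale against WT CD8 SP cells (edgeR adjusted p = 1.77e-05) and by 2.38 ± 0.26 against WT CD4 SP cells (adjusted p = 2.14e-05). It was 4.1-fold higher in Thpok-RKF- CD4+CD8+ than in Thpok-RKF- CD8 SP cells (log2 2.04 ± 0.26, edgeR adjusted p = 0.000387). WT CD4 SP minus WT CD8 SP cells gave 0.06 ± 0.24 (edgeR adjusted p = 0.904). Thpok-RKF- CD4+CD8+ minus WT CD4 SP cells gave -0.35 (edgeR adjusted p = 0.35), and -0.61 without the libraries numbered 1 (adjusted p = 0.0335).

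Tnfsf11, Tnfrsf4 and Tnfrsf9 were the genes called between the CD4+CD8+ and CD8 SP cells of the same Thpok-RKF- genotype, and their promoters are shown with that of Tnfrsf18, the neighbour of Tnfrsf4 that was not called there. Sequences are 5′ to 3′ from RefSeq on GRCm38.p6, from 250 bases before to 50 after the annotated start, and Tnfrsf9 has 2 annotated starts. Capitals mark letters read by RUNX factors (TGTGGT or TGCGGT) or by GATA factors (AGATAA or TGATAA) on either strand, searched because Runx3 is floxed in the mutants and Gata3 is a helper-lineage factor.
Tnfsf11 (chr14:78307994-78308293, minus strand): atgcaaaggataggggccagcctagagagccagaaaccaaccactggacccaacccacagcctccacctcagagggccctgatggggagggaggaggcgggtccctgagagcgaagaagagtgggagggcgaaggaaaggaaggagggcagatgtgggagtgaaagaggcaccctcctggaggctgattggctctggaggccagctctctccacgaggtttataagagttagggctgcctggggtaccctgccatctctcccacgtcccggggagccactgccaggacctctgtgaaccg
Tnfrsf4 (chr4:156013445-156013744, plus strand): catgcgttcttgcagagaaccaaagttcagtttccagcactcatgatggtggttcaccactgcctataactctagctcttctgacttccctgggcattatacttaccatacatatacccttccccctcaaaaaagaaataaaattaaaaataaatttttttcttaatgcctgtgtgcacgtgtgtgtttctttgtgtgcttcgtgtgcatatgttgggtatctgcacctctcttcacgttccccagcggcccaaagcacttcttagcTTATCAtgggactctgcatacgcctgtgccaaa
Tnfrsf9, upstream start (chr4:150919905-150920204, plus strand): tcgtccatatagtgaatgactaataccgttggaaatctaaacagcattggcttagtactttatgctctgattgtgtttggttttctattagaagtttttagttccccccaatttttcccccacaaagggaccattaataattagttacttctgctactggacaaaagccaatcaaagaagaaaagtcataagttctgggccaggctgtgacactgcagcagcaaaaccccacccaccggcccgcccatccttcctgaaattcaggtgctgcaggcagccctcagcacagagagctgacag
Tnfrsf9, downstream start (chr4:150927749-150928048, plus strand): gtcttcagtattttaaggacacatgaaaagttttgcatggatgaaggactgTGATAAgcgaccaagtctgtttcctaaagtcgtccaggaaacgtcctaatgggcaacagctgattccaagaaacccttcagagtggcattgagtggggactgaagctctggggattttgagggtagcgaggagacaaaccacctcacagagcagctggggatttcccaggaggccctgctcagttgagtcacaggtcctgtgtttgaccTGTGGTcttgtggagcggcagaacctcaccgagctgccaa
Tnfrsf18 (chr4:156026072-156026371, plus strand): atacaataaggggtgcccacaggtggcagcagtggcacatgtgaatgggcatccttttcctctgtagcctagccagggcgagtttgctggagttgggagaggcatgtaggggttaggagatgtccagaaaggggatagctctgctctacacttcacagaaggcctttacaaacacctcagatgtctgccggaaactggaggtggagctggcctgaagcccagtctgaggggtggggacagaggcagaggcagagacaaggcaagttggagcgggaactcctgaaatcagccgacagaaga
Tnfrsf4 holds 1 GATA match, the downstream Tnfrsf9 start 1 GATA and 1 RUNX match, and the other 3 sequences neither. Of 11 RefSeq promoter entries for 9 of the 10 genes, those of 3 genes held a RUNX match (Tnfrsf9, Tnfrsf25 and Tnfsf14) and those of 2 a GATA match, where 22.4% and 18.6% of 32851 mouse promoters of this length do. Cd40lg has no entry. A match is a description of letters, not of binding.

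**Figure D2:**
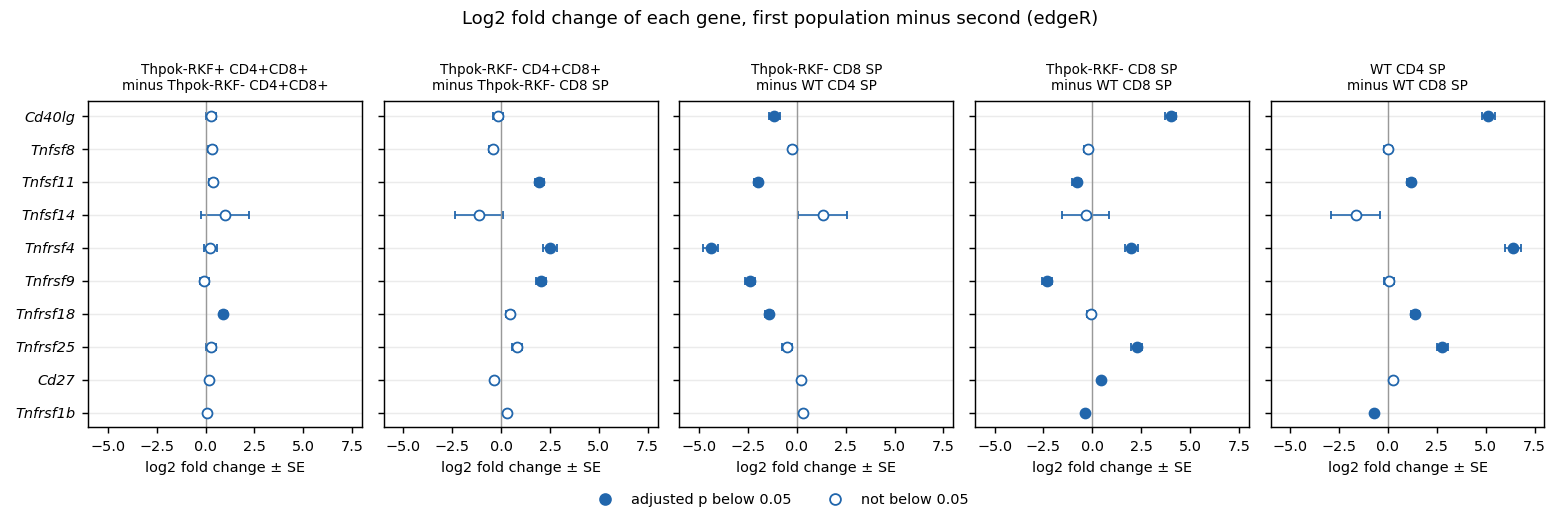
Log2 fold change with its standard error for each gene in 5 comparisons, named above each panel as the first population minus the second (edgeR, n = 3 libraries per group); filled points have adjusted p below 0.05. Between Thpok-RKF+ and Thpok-RKF- CD4+CD8+ cells only Tnfrsf18 is filled (0.92), while Cd40lg is filled at 4.0 in Thpok-RKF- CD8 SP minus WT CD8 SP and open at -0.18 in Thpok-RKF- CD4+CD8+ minus Thpok-RKF- CD8 SP.

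Markers of regulatory T cells and of TCR signals were measured beside these receptors. Of 11 regulatory T cell markers other than the genes described, 10 were tested and Il10 was at 0 in every group. Their summed level was 153 to 175 CPM in Thpok-RKF+ CD4+CD8+, 264 to 353 in Thpok-RKF- CD4+CD8+, 122 to 180.4 in Thpok-RKF- CD8 SP, 250.5 to 365 in WT CD4 SP libraries and 102 to 127 in WT CD8 SP libraries. Gpr83 was a large part of that sum, at 40.9 to 55.4, 115 to 143, 64.5 to 84.2, 80.5 to 101 and 47.1 to 55.9 CPM in the same order. Foxp3, their defining transcription factor, had 8.56, 8.88 and 8.95 CPM in Thpok-RKF+ CD4+CD8+, 50.0, 24 and 22.4 CPM in Thpok-RKF- CD4+CD8+ and 2.27, 3.85 and 2.45 CPM in Thpok-RKF- CD8 SP libraries, with 31.5, 53.7 and 39.3 CPM in WT CD4 SP libraries and 1.67, 2.68 and 1.42 CPM in WT CD8 SP libraries. In Thpok-RKF- CD4+CD8+ replicate 1, Foxp3, Cd4 and Tnfrsf4 were each the highest of their group. Of the 10 markers, 6 rose in Thpok-RKF- CD4+CD8+ against Thpok-RKF- CD8 SP cells (median log2 fold change 2.29), where 1.72% of all genes rose, and 7 rose and Ikzf2 fell in WT CD4 SP against WT CD8 SP cells (median 2.46), where 7.72% rose and 10.3% fell. Tnfrsf9 was called in the first of these comparisons and gave 0.06 in the second. Between Thpok-RKF+ and Thpok-RKF- CD4+CD8+ cells 2 of the 10 markers were called, both lower, where 0.375% of all genes were lower. These were Foxp3 (log2 -1.87 ± 0.33, edgeR adjusted p = 0.0147) and Gpr83 (-1.31 ± 0.15, adjusted p = 0.000742). Nrp1, not called, was 33.6 to 36.4 CPM in Thpok-RKF+ and 25.8 to 31.7 CPM in Thpok-RKF- CD4+CD8+ libraries. The part of regulatory T cells in the Tnfrsf4, Tnfrsf18 and Tnfrsf9 results was not tested.

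Of 10 TCR response genes, 8 fell in Thpok-RKF- CD8 SP against WT CD8 SP cells (10.6% of all genes fell), 7 fell against WT CD4 SP cells (8.75% fell), and 5 rose in Thpok-RKF- CD4+CD8+ against Thpok-RKF- CD8 SP cells (1.72% rose). Their median log2 fold changes were -1.58, -1.58 and 1.64, where the median of all genes was 0.00 in each. Their summed level was 512 to 529 CPM in Thpok-RKF- CD8 SP libraries, against 1332 to 1803 in Thpok-RKF+ CD4+CD8+, 1346 to 1383 in Thpok-RKF- CD4+CD8+, 1672 to 1839 in WT CD4 SP libraries and 1094 to 1487 in WT CD8 SP libraries. Egr2, a transcription factor induced by the TCR, had 25.1, 29.2 and 26.9 CPM in Thpok-RKF- CD8 SP libraries and 58.7 CPM or more in every other library. Cd5, a surface gene whose level follows TCR signal strength, fell by 1.61 ± 0.13 on the log2 scale against WT CD8 SP cells (edgeR adjusted p = 8.94e-07). One listed gene, Cd69, belongs to the sort gate. Tnfrsf9 and Tnfsf11 were lowest in the same Thpok-RKF- CD8 SP libraries. Tnfsf11 was also low in WT CD8 SP libraries (5.12 to 6.55 CPM), whose TCR response sum was 1094 to 1487 CPM. The part of TCR signals in the levels of Tnfrsf9 and Tnfsf11 was not tested. Immature thymocyte markers, 6 genes, summed to 116 to 208 CPM in Thpok-RKF- CD8 SP libraries and at most 66 in the other groups. Dntt alone, with 107, 187 and 197 CPM, carried that sum: in these libraries Rag1, Rag2, Ptcra and Cd24a were at most 2.83 CPM, and Rag1 was 0.713 to 2.2 CPM, against 2.04 to 7.38 CPM in Thpok-RKF- CD4+CD8+ libraries. Cd24a, like Cd69, belongs to the sort gate, so its low level was set by the sort. Dntt was the 1 marker called against WT CD8 SP cells (log2 3.43 ± 0.30, edgeR adjusted p = 1.95e-06), and its part was not tested either.

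**Figure D3:**
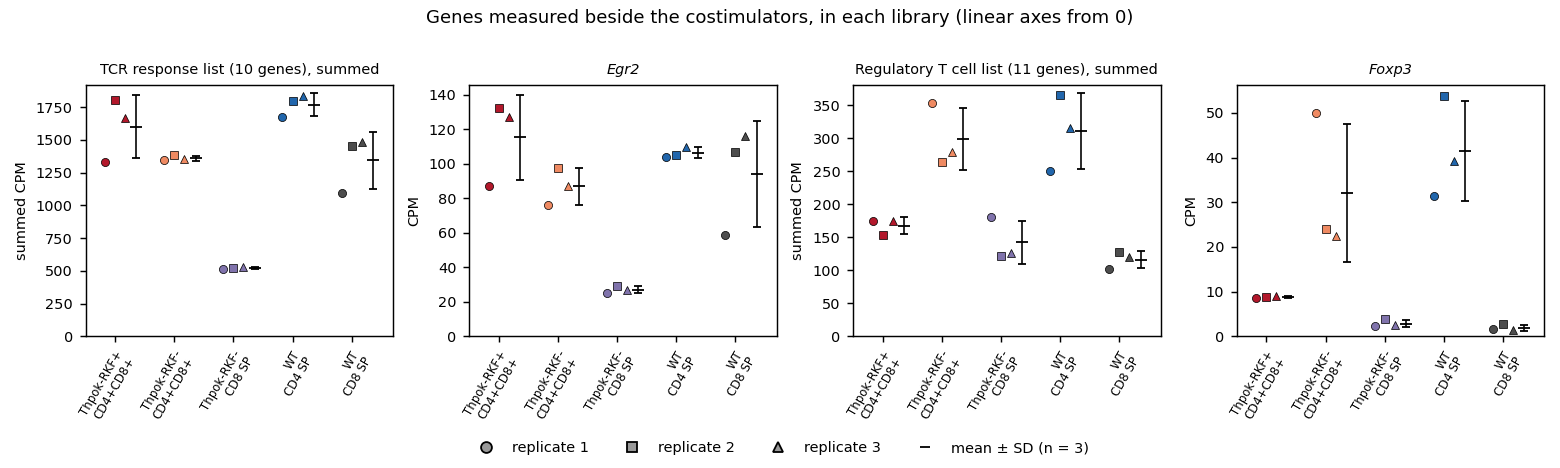
Levels in each library of genes measured beside the costimulators, on linear axes from 0: the sum of 10 TCR response genes, Egr2, the sum of 11 regulatory T cell markers and Foxp3, in CPM; point shapes are replicates, and bars are mean ± SD (n = 3 libraries). The TCR response sum is lowest in Thpok-RKF- CD8 SP libraries (512 to 529 CPM), and Foxp3 is lower in Thpok-RKF+ (8.56 to 8.95 CPM) than in Thpok-RKF- CD4+CD8+ libraries (22.4 to 50.0 CPM). Gpr83 is a large part of the regulatory T cell sum.

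Tnfrsf25 encodes DR3, the receptor for the cytokine TL1A. It had 123, 176 and 161 CPM in Thpok-RKF+ CD4+CD8+, 171, 105 and 98 CPM in Thpok-RKF- CD4+CD8+ and 94.1, 63.1 and 53.8 CPM in Thpok-RKF- CD8 SP libraries. WT CD4 SP libraries had 81.6, 110.2 and 109 CPM and WT CD8 SP libraries 18.8, 11.3 and 13.8 CPM. Every library of the other groups lay above every WT CD8 SP library. The rise over WT CD8 SP was 4.82-fold in Thpok-RKF- CD8 SP cells (log2 2.27 ± 0.27, edgeR adjusted p = 3.46e-05) and 6.89-fold in WT CD4 SP cells (2.78 ± 0.28, adjusted p = 8.55e-06). Thpok-RKF- CD8 SP minus WT CD4 SP cells gave -0.51 ± 0.26 (edgeR adjusted p = 0.188), and -0.92 without the libraries numbered 1 (adjusted p = 0.00142). Calls were also gained without those libraries in 3 other comparisons. Thpok-RKF+ minus Thpok-RKF- CD4+CD8+ cells gave 0.73 (edgeR adjusted p = 0.0116), against 0.30 with them (0.637), where all genes called were 1753 against 159. The fold change hardly moved for Thpok-RKF+ CD4+CD8+ minus WT CD4 SP cells, 0.62 (0.0218) against 0.61 (0.187). The same held for Thpok-RKF- CD4+CD8+ minus Thpok-RKF- CD8 SP cells, 0.80 (0.011) against 0.83 (0.147). That last comparison was also called with those libraries kept, with no low-count filter (0.0135) and by DESeq2 (0.0311).

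Cd27 and Tnfrsf1b were at 134 CPM or more in every library and spanned less than 1 log2 unit between group means. Cd27, the receptor for CD70, averaged 569 ± 80.6 CPM in Thpok-RKF+ CD4+CD8+, 496 ± 14.4 in Thpok-RKF- CD4+CD8+, 626 ± 22 in Thpok-RKF- CD8 SP, 543 ± 56.4 in WT CD4 SP cells and 454 ± 19.1 in WT CD8 SP cells (SD, n = 3 each). It rose in Thpok-RKF- CD8 SP against WT CD8 SP cells, 601 to 642 against 433 to 469.7 CPM (log2 0.46 ± 0.11, edgeR adjusted p = 0.00682). Without Thpok-RKF+ CD4+CD8+ replicate 1, Cd27 was also called between Thpok-RKF+ and Thpok-RKF- CD4+CD8+ cells (0.31, adjusted p = 0.0448, against 0.419 with it). Over all genes, leaving out 1 library gave 50 to 1677 calls in that comparison, against 159 with all libraries. WT CD4 SP minus WT CD8 SP cells gave 0.26 ± 0.11 for Cd27 (edgeR adjusted p = 0.115), called without the libraries numbered 1 (0.0427) and by DESeq2 (0.0391), and Thpok-RKF- CD4+CD8+ minus Thpok-RKF- CD8 SP cells gave -0.34 ± 0.11 (edgeR adjusted p = 0.159), called with these groups alone (0.0394) and by DESeq2 (0.0283). Tnfrsf1b, the gene for TNF receptor 2, had its lowest level in WT CD4 SP cells. It averaged 235 ± 12.2 CPM in Thpok-RKF+ CD4+CD8+, 225 ± 11.4 in Thpok-RKF- CD4+CD8+, 182 ± 15.7 in Thpok-RKF- CD8 SP, 145 ± 14.6 in WT CD4 SP cells and 236 ± 26.5 in WT CD8 SP cells (SD, n = 3 each). The groups of CD4+CD8+ cells did not overlap WT CD4 SP, with log2 fold changes of 0.70 ± 0.11 for Thpok-RKF+ and 0.64 ± 0.11 for Thpok-RKF- (edgeR adjusted p = 0.00116 and 0.00196), and WT CD4 SP cells were below WT CD8 SP cells (-0.70 ± 0.11, adjusted p = 0.000579). In Thpok-RKF- CD8 SP against WT CD8 SP cells Tnfrsf1b fell by 0.38 ± 0.11 (edgeR adjusted p = 0.0303), a call lost without WT CD8 SP replicate 2 or 3 (0.146 and 0.158), without Thpok-RKF- CD8 SP replicate 1 or 2 (0.143 and 0.089), with these groups alone (0.0569) and with no low-count filter (0.126). Against WT CD4 SP cells it was just short of a call (0.33 ± 0.11, adjusted p = 0.058), and passed without WT CD4 SP replicate 2 (0.0405), without the libraries numbered 1 (0.046), with the replicate number in the model (0.0431), with relative log expression scaling (0.0458) and by DESeq2 (0.0151).

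Counted over the 10 genes, the comparisons ranged widely, and they share groups, so their counts are not independent. Between Thpok-RKF+ and Thpok-RKF- CD4+CD8+ cells, which differ by label only in Thpok-RKF, 1 of 10 was called, where 0.961% of the 16550 genes tested were (0.586% higher, 0.375% lower). Between Thpok-RKF- CD4+CD8+ and Thpok-RKF- CD8 SP cells, of the same genotype, 3 of 10 were called, all 3 higher, where 2.44% of all genes were (1.72% higher, 0.719% lower). Thpok-RKF- CD8 SP cells differed from WT CD8 SP cells in 7 of 10 (4 higher, 3 lower; all genes 18.4%, 7.78% higher, 10.6% lower) and from WT CD4 SP cells in 5 of 10, all 5 lower (all genes 17.7%, 8.91% higher, 8.75% lower). Thpok-RKF- CD4+CD8+ cells differed from WT CD4 SP cells in 5 of 10 (1 higher, 4 lower; all genes 17.6%, 9.15% higher, 8.42% lower), and Thpok-RKF+ CD4+CD8+ cells in 3 of 10 (1 higher, 2 lower; all genes 7.26%, 4.36% higher, 2.91% lower). WT CD4 SP differed from WT CD8 SP cells in 6 of 10 (5 higher, 1 lower; all genes 18.0%, 7.72% higher, 10.3% lower). In the other 3 pairs of groups every call was a rise: 5 of 10 in Thpok-RKF+ CD4+CD8+ against Thpok-RKF- CD8 SP cells (all genes 5.52%, 3.40% higher, 2.11% lower), 4 of 10 in Thpok-RKF- CD4+CD8+ against WT CD8 SP cells (12.1%, 5.11% higher, 7.04% lower) and 5 of 10 in Thpok-RKF+ CD4+CD8+ against WT CD8 SP cells (11.1%, 4.97% higher, 6.11% lower). The median log2 fold change of the 10 was 0.28 for Thpok-RKF+ minus Thpok-RKF- CD4+CD8+ cells (all genes 0.01), 0.39 for Thpok-RKF- CD4+CD8+ minus Thpok-RKF- CD8 SP cells (0.00), -0.13 for Thpok-RKF- CD8 SP minus WT CD8 SP cells (0.00), -0.83 for Thpok-RKF- CD8 SP minus WT CD4 SP cells (0.00) and 0.72 for WT CD4 SP minus WT CD8 SP cells (-0.03).

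Whether the genes separate CD4+ from CD4- cells alike in mutant and WT cells was tested as a difference of differences, the Thpok-RKF- CD4+CD8+ minus Thpok-RKF- CD8 SP change less the WT CD4 SP minus WT CD8 SP change. It was called for 7 of 10 genes, where 14.3% of all genes tested were (8.47% higher, 5.79% lower). Cd40lg had the largest, -5.32 ± 0.40 (edgeR adjusted p = 8.16e-07), with a mutant change of -0.18 and a WT change of 5.14. Tnfrsf4 (-3.91 ± 0.48, adjusted p = 8.18e-05) and Tnfrsf25 (-1.96 ± 0.37, adjusted p = 0.00259) also separated mutant cells less than WT cells. Tnfrsf9 went the other way, 1.97 ± 0.35 (edgeR adjusted p = 0.00169), with a change of 2.04 in mutant and 0.06 in WT cells. Cd27 (-0.59 ± 0.15), Tnfrsf18 (-0.90 ± 0.28) and Tnfrsf1b (1.01 ± 0.16) were called with smaller differences (edgeR adjusted p = 0.0176, 0.0475 and 0.000657). The Tnfrsf18 call was lost with the replicate number in the model (0.0557) and without any 1 of 9 of the 12 libraries (0.0504 to 0.104), and the Cd27 call with no low-count filter (0.0551). For Tnfsf11 the difference was 0.78 ± 0.29 (edgeR adjusted p = 0.0899). CD8 is present on the mutant CD4+CD8+ cells and absent from WT CD4 SP cells by sort, and WT groups differ in host, so these cannot be told apart from genotype.

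**Figure D4:**
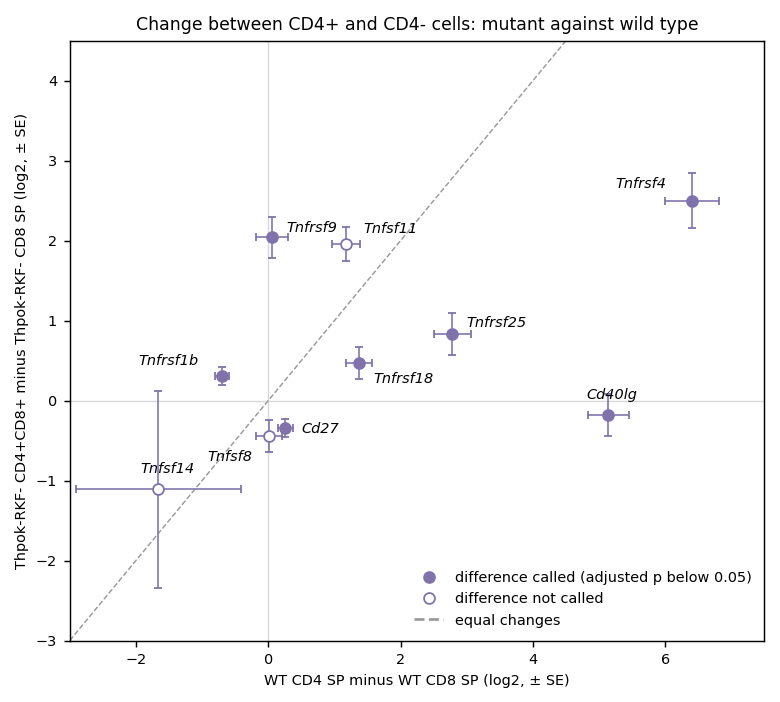
Change between CD4+ and CD4- cells in mutants (Thpok-RKF- CD4+CD8+ minus Thpok-RKF- CD8 SP, vertical) and in wild type (WT CD4 SP minus WT CD8 SP, horizontal), in log2 units with standard errors (edgeR, n = 3 libraries per group); filled points have a called difference of differences and the dashed line marks equal changes. Cd40lg lies far right of the line at 5.14 and -0.18, and Tnfrsf9 above it at 0.06 and 2.04.

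Other genes of the pathway were read from lists. Of 14 further TNF superfamily ligands, 7 passed the filter, and of these 4 were called between Thpok-RKF- CD8 SP and WT CD8 SP cells, where 18.4% of all genes were. None was called between Thpok-RKF+ CD4+CD8+ cells and either Thpok-RKF- group or WT CD4 SP cells, nor between the Thpok-RKF- groups. Lta, the gene for lymphotoxin alpha, stood at 49.8, 60.8 and 55.7 CPM in Thpok-RKF+ CD4+CD8+, 53.8, 43.7 and 42.2 CPM in Thpok-RKF- CD4+CD8+, 52.1, 48.2 and 55.7 CPM in Thpok-RKF- CD8 SP, 28.9, 44.9 and 46.9 CPM in WT CD4 SP libraries and 21.5, 21.2 and 23.5 CPM in WT CD8 SP libraries. Like Cd40lg, it rose in Thpok-RKF- CD8 SP against WT CD8 SP cells (log2 1.24 ± 0.17, edgeR adjusted p = 0.000135), as did Ltb (0.76 ± 0.23, 0.0296) and Fasl, whose levels were 0.389 to 0.988 against 0 to 0.0797 CPM (adjusted p = 0.0324), while Tnfsf10, the gene for TRAIL, fell (-0.79 ± 0.26, 0.049). Fasl was higher in WT CD4 SP (7.37 to 12.6 CPM) and Thpok-RKF+ CD4+CD8+ libraries (3.32 to 3.56 CPM). Of 22 further receptors 14 passed the filter and 1 rose in Thpok-RKF- CD8 SP against WT CD8 SP cells, Tnfrsf26 (0.50 ± 0.16, edgeR adjusted p = 0.0446). Its libraries overlapped, 69.6 to 116 against 58.6 to 73.7 CPM. Of 26 TRAF and NF-kB genes, 5 rose and Ripk1 fell in the same comparison (median log2 fold change 0.13, all genes 0.00), a share near the 18.4% of all genes called. They include Traf5, an adaptor of OX40 and CD27, at 0.85 ± 0.15 (adjusted p = 0.000927) and Birc3 at 0.67 ± 0.14 (0.00283). Between Thpok-RKF+ and Thpok-RKF- CD4+CD8+ cells, the receptor gene Tnfrsf23 fell, 0.108 to 0.592 against 1.59 to 2.33 CPM (-2.57 ± 0.55, edgeR adjusted p = 0.0432). Between Thpok-RKF- CD4+CD8+ and Thpok-RKF- CD8 SP cells, Bcl3, an NF-kB cofactor, rose (0.68 ± 0.15, edgeR adjusted p = 0.0288) and Traf5 fell (-0.71 ± 0.15, adjusted p = 0.0191).

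The genes whose pattern across the 15 libraries came closest were sought for the 4 widest-ranging genes among 8432 genes, by the mean absolute difference of centred log2 (CPM + 1). For Tnfrsf4, whose own mean deviation was 1.90, these were Ptgir (0.65), Ccr8 (0.72) and Arhgap20 (0.89). For Cd40lg (own deviation 1.28) they were Lgmn (0.41), Adh1 (0.41) and Ptgir (0.53). For Tnfrsf25 (0.97) they were Lmna (0.31), Kcnip2 (0.35) and Ecm1 (0.38), and for Tnfrsf9 (0.69) Hvcn1 (0.28), Egr2 (0.29) and Cd5 (0.30), of which Egr2 and Cd5 are on the TCR response list. These are descriptions over libraries that share groups.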

How the data were processed

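RNA of 15 sorted samples was extracted with an RNeasy Plus Micro kit, amplified with a SMARTer Ultra Low Input kit and sequenced from both ends on a NovaSeq, per the labels' protocols. The authors deposited raw counts of reads per gene, as a table of all libraries and as 1 file per library, which held identical values. Per the submitters' processing notes, the tools were bcl2fastq 2.17, Trimmomatic, STAR, HTSeq and DESeq2 on build mm39; which tool did what, the annotation and whether strand was used were not stated in the sources used here. Without a strand setting, reads of a gene and of an overlapping antisense gene cannot be told apart. In the table, 3 columns match no label and were left unused, as was a table of normalised values. The 5 summary lines per library that name no gene held 15.9% to 21.0% of counted reads and were left out.

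Counts were tested with the edgeR 4.0.16 quasi-likelihood F test in R 4.3.3, with TMM normalisation, 1 model of 5 group means over all 15 libraries on the 16550 of 53762 genes that passed filterByExpr (min.count 10, min.total.count 15). Adjustment was Benjamini-Hochberg over these genes and a call is an adjusted p below 0.05. Standard errors divide the log2 fold change by the root of its F statistic, and levels are TMM-scaled CPM. Replicates all differed by more than sampling noise (chi-square over degrees of freedom 11.1 to 190.4), and floors of 3 counts cover counting error only. Exon lengths are from GENCODE vM21, on another build than the counts. Promoters were matched by symbol to RefSeq on GRCm38.p6. The fit was tested on simulated data. The alternatives tried were another scaling (relative log expression), leaving genes unfiltered, the Wald test of DESeq2 1.42.0, fitting the compared groups alone, a replicate block, and leaving libraries out.

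The 10 genes, all lists and tests were chosen with earlier results of these data known. Always named were these genes and Zbtb7b. Also named were up to 4 called genes of a list per comparison by smallest adjusted p, and 3 genes of like pattern with a mean log2 CPM of at least 3. Il10, Cd69, Ms4a1, Pax5, Cd79a, Ighm, Rag1, Rag2, Ptcra, Cd24a, Lyz2, Csf1r, Adgre1, Cst3, H2-Aa, Itgax and Gm25982 were named after their values were seen.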

Additional observations from a re-analysis of the deposited data

Results flagged for a closer look

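The change between CD4+ and CD4- cells differed between Thpok-RKF- mutant and WT cells for 7 of the 10 genes by a test of the difference itself, the contrast of 4 group means in edgeR with Benjamini-Hochberg adjustment over all genes, which called 14.3% of the 16550 genes tested (8.47% higher, 5.79% lower). In log2 units, mutant minus WT, it was -5.32 for Cd40lg, -3.91 for Tnfrsf4, -1.96 for Tnfrsf25, -0.90 for Tnfrsf18 and -0.59 for Cd27, whose changes were lower in mutant than in WT cells, and 1.97 for Tnfrsf9 and 1.01 for Tnfrsf1b, whose changes were higher. The Tnfrsf18 call was lost with the replicate number in the model (edgeR adjusted p = 0.0557) and without any 1 of 9 of the 12 libraries (0.0504 to 0.104), and the Cd27 call with no low-count filter (0.0551).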

How the results depend on the processing

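Of 80 results (10 genes in 7 comparisons and the difference of differences), 1020 values were computed under alternatives, and 933 kept direction and side of the threshold; 38 lost a call, 23 gained one and 26 changed sign. None of the 26 was called, with all libraries or in the alternative, and the cause was not tested. The count of genes called between Thpok-RKF+ and Thpok-RKF- CD4+CD8+ cells, 1 (all genes 159), became 0 with only these groups in the fit (all genes 52), 0 with the replicate block (236), 3 without the libraries numbered 1 (1753) and 0 to 2 with 1 library left out (50 to 1677). Between Thpok-RKF- CD4+CD8+ and Thpok-RKF- CD8 SP cells it was 5 with DESeq2, against 3, and 3 with any 1 library left out. With 1 library left out the counts were 6 to 7 between the WT groups, 5 to 7 and 5 to 6 for Thpok-RKF- CD8 SP against WT CD8 SP and WT CD4 SP, 4 to 5 and 2 to 3 for Thpok-RKF- and Thpok-RKF+ CD4+CD8+ against WT CD4 SP, 6 to 7 for the difference of differences and 8 to 10 for neighbours in rank. The labels do not say whether replicate numbers pair the samples. In no comparison did every pair of same-numbered libraries correlate above 0.1 in its deviations from group means. Pairs numbered 1 correlated at 0.09 to 0.44 over the 7 comparisons. In Thpok-RKF- CD8 SP and WT CD4 SP 6 of 6 libraries correlated best with their own number, and in Thpok-RKF- CD8 SP and WT CD8 SP 5 of 6. A shared effect of the replicate number was therefore not excluded. The block left the count at 3 between the Thpok-RKF- groups, and 5 for Thpok-RKF- CD4+CD8+ against WT CD4 SP. Over all genes, the count for Thpok-RKF+ against Thpok-RKF- CD4+CD8+, 159, was 676 with DESeq2, 428 with no filter, 52 with these groups alone, 1753 without the libraries numbered 1 and 50 to 1677 with 1 library left out; for Thpok-RKF+ CD4+CD8+ against WT CD4 SP, 1202, it was 1946 with DESeq2 and 581 with these groups alone; for Thpok-RKF- CD4+CD8+ against Thpok-RKF- CD8 SP, 403, it was 782 with DESeq2 and 216 to 311 with 1 library left out. With 1 library left out it was 1488 to 2626, against 2908, for Thpok-RKF- CD4+CD8+ against WT CD4 SP, 1613 to 2669, against 2922, for Thpok-RKF- CD8 SP against WT CD4 SP, and 1908 to 2623, against 2981, for the WT groups. Signs changed without the libraries numbered 1 for Tnfrsf18 in Thpok-RKF+ CD4+CD8+ minus WT CD4 SP (0.05), Tnfrsf25 in Thpok-RKF- CD4+CD8+ minus WT CD4 SP (-0.12), Tnfrsf9 in Thpok-RKF+ minus Thpok-RKF- CD4+CD8+ (0.29) and Tnfsf14 in the difference of differences (-0.12), Thpok-RKF- CD4+CD8+ minus WT CD4 SP (-0.07) and Thpok-RKF- CD8 SP minus WT CD8 SP (0.05), and with no filter for Tnfsf8 between WT groups (0.00). With 1 library left out, ranges that crossed 0 were -0.03 to 0.17 for Cd27 and -0.19 to 0.11 for Tnfrsf18 in Thpok-RKF+ CD4+CD8+ minus WT CD4 SP, -0.31 to 0.05 for Cd40lg in Thpok-RKF- CD4+CD8+ minus Thpok-RKF- CD8 SP, -0.22 to 0.05 for Tnfrsf18 and -0.63 to 0.06 for Tnfsf14 in Thpok-RKF- CD8 SP minus WT CD8 SP, -0.19 to 0.16 for Tnfrsf9 in Thpok-RKF+ minus Thpok-RKF- CD4+CD8+, -0.05 to 0.21 for Tnfrsf9 and -0.04 to 0.11 for Tnfsf8 between WT groups, -0.13 to 0.05 for Tnfsf11 and -0.51 to 7.36 for Tnfsf14 in Thpok-RKF- CD4+CD8+ minus WT CD4 SP, and -0.18 to 7.69 for Tnfsf14 in the difference of differences. None of 50 group means moved by more than 1 SD on gene totals alone. Tnfsf14 had 0, 0 and 52 counts in WT CD4 SP libraries of 43858116, 48568643 and 45361106 gene counts.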

Other observations

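Costimulators of the CD28 family, 5 genes, were read beside the TNF family, of which Ctla4 is also on the regulatory T cell list. Cd28, the main costimulatory receptor of naive T cells, stood at 431, 294 and 276 CPM in Thpok-RKF+ CD4+CD8+, 375, 301 and 275 CPM in Thpok-RKF- CD4+CD8+ and 273, 229 and 219.8 CPM in Thpok-RKF- CD8 SP libraries, against 436, 412 and 372 CPM in WT CD4 SP and 192, 133 and 142 CPM in WT CD8 SP libraries. In Thpok-RKF- CD8 SP against WT CD8 SP cells, where 18.4% of all genes were called, Cd28 (log2 0.63 ± 0.18) and the inhibitory receptor gene Ctla4 (1.93 ± 0.42) rose, and Icos (-0.59 ± 0.13) and Pdcd1 (-1.91 ± 0.33), which encodes PD-1, fell (edgeR adjusted p = 0.0265, 0.00454, 0.00497 and 0.000773). Ctla4 had 51, 17.3 and 17.3 CPM in the Thpok-RKF- CD8 SP libraries, so replicate 1 set its mean. Against WT CD4 SP cells 4 of 5 fell in Thpok-RKF- CD8 SP cells, 3 of 5 in Thpok-RKF- CD4+CD8+ cells and 2 of 5, Icos and Pdcd1, in Thpok-RKF+ CD4+CD8+ cells, where 8.75%, 8.42% and 2.91% of all genes fell, and the counts were not tested against each other.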
